A study of Drosophila melanogaster with 2 samples.

Results

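The 10 genes described here make, store, break down or carry neutral lipid in Drosophila melanogaster. FASN1, FASN2, Desat1, Lpin and mdy act in synthesis, Lsd-1 and Lsd-2 in storage, bmm in breakdown, and apolpp and Apoltp in transport between tissues. They were listed by name for their roles, with earlier results of these data known, and are 10 of 13968 protein-coding genes on the chromosome arms. Every peak was taken whose summit, the point of highest signal, lay in the gene body or up to 2 kb upstream, called the window below. The flies carried a fusion of GATAe, a zinc-finger GATA factor of endoderm and midgut, with enhanced green fluorescent protein (GATAe-eGFP). Chromatin from whole embryos aged 0 to 24 h was sheared to between 200 and 800 bp and precipitated with an antibody to GFP, in 1 group of 2 biological replicates. Both replicates carried the fusion, and whether the untagged native gene was intact is not given in the labels. A control experiment is named there and was not analysed here. The tissue was not dissected, so a site bound in few cells and a site bound weakly in many cannot be told apart.

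Animals build triacylglycerol by joining fatty acids to a glycerol backbone, and they store it in droplets whose surface carries perilipin proteins. Lipases release the fatty acids again, and in insects a lipoprotein named lipophorin carries lipid through the haemolymph. The fat body is the main store, the midgut absorbs and exports lipid, and the early embryo lives on droplets laid down by the mother. GATA factors bind DNA through zinc fingers that read the letters GATA and their neighbours.

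In the main list, the conservative list of peaks that pairs both replicates, 8 of the 10 windows held a summit, against 19.0% of those of all protein-coding genes. Peaks in this list have an irreproducible discovery rate (IDR) of at most 0.01. In a list that pairs the replicates, the IDR measures how poorly a peak's rank repeats between them. An IDR given below for a single replicate comes from that replicate's own list and does not compare the 2 replicates. Each peak carries the authors' signal value, whose scale differs between the lists of the series and those of each replicate. The 8 genes shared 10 summits, with 2 each at Lpin and mdy and 1 each at FASN1, FASN2, Desat1, Lsd-2, bmm and Apoltp. Lsd-1 and apolpp had none. The windows of the 10 genes are long, with a median of 12.9 kb against 4.16 kb for all protein-coding genes, and longer windows hold summits more often. Of protein-coding genes with a window of 10 to 15 kb, 33.2% had a summit, as did all 5 of the lipid genes of that size. Of those with a window of 15 to 25 kb, 35.5% had one, as did 2 of 3 lipid genes. These shares are given as a description, and no test was made of them.

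Some of the summits had GATA words within 50 bp and some had none. The word searched on both strands, WGATAR, is GATA with an A or T before it and an A or G after it. A bare GATA was searched too, and each WGATAR contains one. The summit base and 50 bases to either side are printed for 8 of the summits, 5′ to 3′ in the direction of the gene, on the dm6 assembly from the RefSeq copy, with WGATAR and bare GATA on either strand in capitals. A word read from the other strand appears reversed and complemented, and each such word printed here begins TTATC. They are shown so that summit windows with and without the word can be set side by side. The windows are shorter than the peaks, so a window without the word can lie in a peak that holds it, as at bmm. The Lpin windows are not printed.
FASN1, chr2L:3058083-3058183, plus strand: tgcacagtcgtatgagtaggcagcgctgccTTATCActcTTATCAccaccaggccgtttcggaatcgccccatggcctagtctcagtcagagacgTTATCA
FASN2, chr2L:3045175-3045275, plus strand: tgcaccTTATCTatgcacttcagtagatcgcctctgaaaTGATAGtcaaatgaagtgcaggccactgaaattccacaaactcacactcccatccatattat
mdy, stronger peak, chr2L:16819943-16820043, plus strand: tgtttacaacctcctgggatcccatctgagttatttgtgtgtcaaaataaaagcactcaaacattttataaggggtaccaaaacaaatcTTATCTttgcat
mdy, weaker peak, chr2L:16817631-16817731, plus strand: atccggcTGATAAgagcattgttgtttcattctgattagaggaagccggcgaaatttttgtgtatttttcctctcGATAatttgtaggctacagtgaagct
Apoltp, chr2L:9633199-9633299, plus strand: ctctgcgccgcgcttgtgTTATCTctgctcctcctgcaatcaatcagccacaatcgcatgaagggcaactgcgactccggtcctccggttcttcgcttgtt
Desat1, chr3R:12443909-12444009, plus strand: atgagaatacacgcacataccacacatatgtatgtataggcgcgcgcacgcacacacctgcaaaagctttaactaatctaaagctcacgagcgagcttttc
Lsd-2, chrX:15075024-15075124, minus strand: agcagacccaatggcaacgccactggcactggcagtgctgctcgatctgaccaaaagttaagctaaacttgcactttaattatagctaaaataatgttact
bmm, chr3L:14785124-14785224, minus strand: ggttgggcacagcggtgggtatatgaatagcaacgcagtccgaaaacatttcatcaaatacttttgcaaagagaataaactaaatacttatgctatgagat

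The word was found within 50 bp of 5 of the 10 summits, those of FASN1, FASN2, mdy (both) and Apoltp. FASN1 had 3 words, FASN2 had 2, and the other 3 summits had 1 each. The remaining 5 summits, at Desat1, Lsd-2, bmm and both Lpin peaks, had none in that window. At bmm the replicate 1 summit, 107 bp from the main-list summit and inside the main-list peak, had 2 words within 50 bp, the nearest centred 0.5 bp away. At Apoltp and at the weaker mdy peak, each with 1 word at the main-list summit, the replicate 1 summit had none within 50 bp. Of all 3032 main-list summits on the arms 46.0% had the word in a window of that length, of 6064 windows centred 500 bp to either side 20.6% did, and of 19275 windows centred on annotated protein-coding transcription start sites (TSSs) 14.8% did. The share among the lipid gene summits, 5 of 10, stood close to that of the whole list. Their own flanks had the word in 6 of 20 windows. A bare GATA lay within 50 bp of 6 of the 10 summits, against 11 of 20 of their own flanks, 72.1% of all summits and 48.1% of all flanks. The sixth was the weaker Lpin peak, which had 5 bare GATA and no WGATAR.

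**Figure D1:**
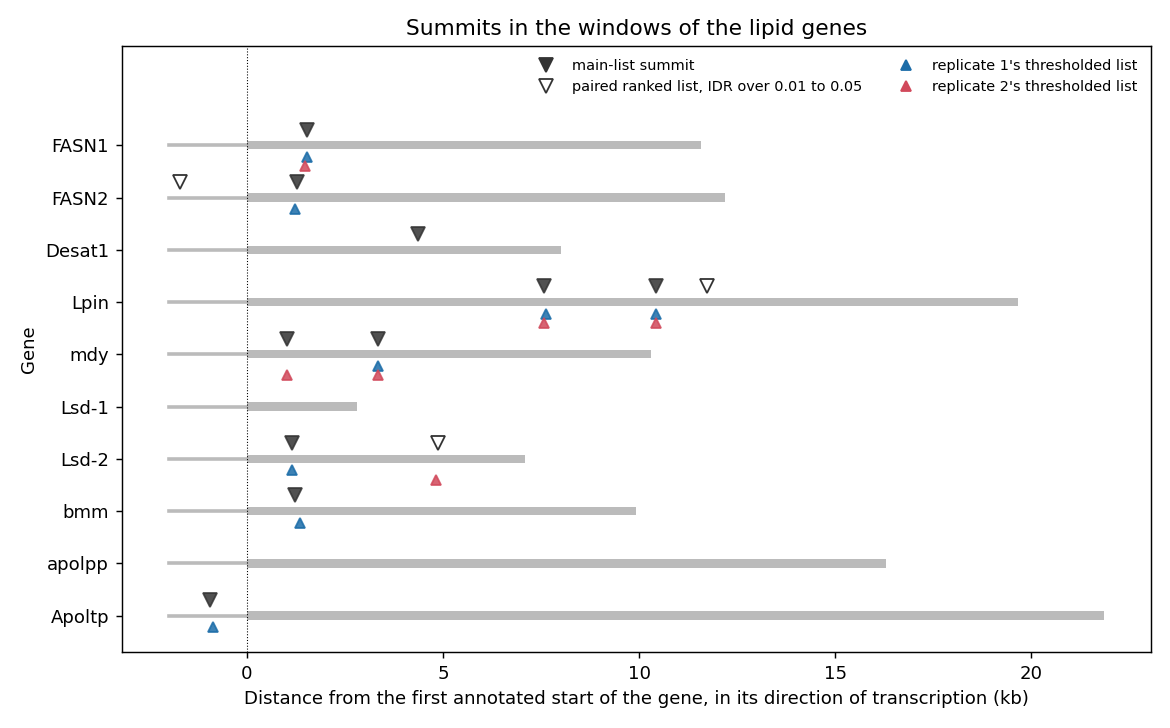
Positions of summits in the 10 windows, with distance in kb from the first annotated start of each gene on the x axis and genes on the y axis; thick bars are gene bodies and thin lines the 2 kb upstream. Filled black triangles are the 10 main-list summits, open triangles are 3 summits of the paired ranked list with an IDR over 0.01 and up to 0.05, and coloured triangles are summits of each replicate's own thresholded list. Lsd-1 and apolpp carry no mark, and at Lsd-2 the 2 replicates mark different places.

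Among the synthesis genes, Lpin had the strongest signal. Lpin (FBgn0263593) encodes lipin, the phosphatidate phosphatase that makes diacylglycerol, and lies at 8136986 to 8156654 on arm 2R, minus strand. Its stronger peak covered 8146143 to 8146313 and had its summit 238 bp from an internal TSS of Lpin, with a signal of 314, rank 77 of 3032. The authors gave replicate 1 a signal of 176 there and replicate 2 a signal of 131, each in its own ranked list, and the IDR was 1e-05 in both, the lowest value the lists give. The weaker peak, at 8148974 to 8149112, had a signal of 246, rank 180, with 126 in replicate 1 and 115 in replicate 2. It lay in the body of Lpin and of kermit, a gene nested there that encodes a PDZ-domain protein, 85 bp from a TSS of kermit and 3105 bp from one of Lpin. The weaker peak is therefore nearer to kermit than to any start of Lpin. Lpin ranked 115 among the 2657 protein-coding genes with a summit, ordered by their strongest peak.

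**Figure D2:**
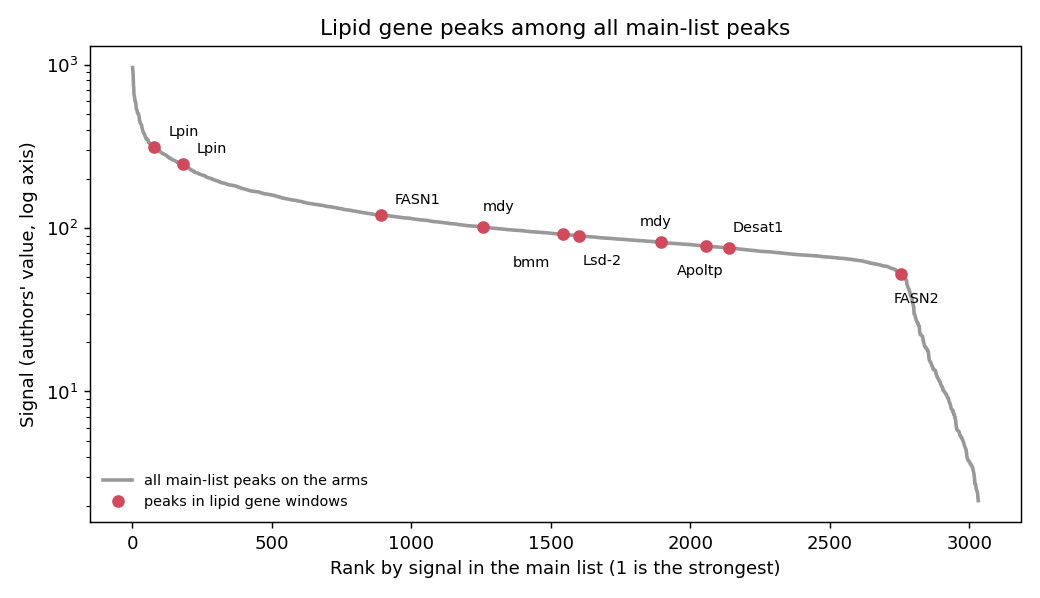
Signal of all 3032 main-list peaks (y axis, authors' value, log axis) against rank (x axis), with the 10 peaks in lipid gene windows as points. The Lpin peaks stand at ranks 77 and 180, the next 7 run from FASN1 at 890 to Desat1 at 2139, and FASN2 stands at 2756.

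The other peaks were of middling or low signal. The median over the 10 lipid peaks, both Lpin peaks included, was 90.6 and that over all main-list peaks 92.3. Taking the strongest peak of each gene with a summit, the median was 90.6 for the lipid genes and 106 for all protein-coding genes. FASN1 (FBgn0283427), a fatty acid synthase, lies at 3056598 to 3068177 on 2L, plus strand. Its peak covered 3057953 to 3058312, in an intron 1144 bp from the nearest TSS of the gene, with a signal of 120, rank 890. Replicate 1 had a signal of 81.5 (IDR 6.0e-05) and replicate 2 one of 45.6 (IDR 0.00366) there, so both passed their own threshold of 0.01. The summits of the replicates lay 61 bp apart, and the nearest word is the second of the trio printed above, centred 8.5 bp from the main-list summit. Within 50 bp the replicate 1 summit had 3 words, the nearest centred 9.5 bp away. The replicate 2 summit had 1, centred 42.5 bp away.

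FASN2 (FBgn0042627) encodes a second fatty acid synthase, known for its part in making cuticular hydrocarbons, and stands just upstream of FASN1 at 3043947 to 3056143. Its main-list peak at 3045045 to 3045404, in an intron 1278 bp from the TSS, had a signal of 52.6, rank 2756, the lowest of the 10. The signal was 36.0 in replicate 1 (IDR 0.00672) and 31.9 in replicate 2 (IDR 0.0653). This peak is absent from the second series-level list and from replicate 2's thresholded list. A peak with a higher signal, 67.6, had its summit at 3042242, 1705 bp upstream of FASN2 and 309 bp from a TSS of CG17261, and missed the threshold with an IDR of 0.0137. In the paired ranked list the strongest candidate of the FASN2 window by signal was therefore not the one in the main list. In each replicate's own ranked list the main-list peak came first, with 36.0 against 34.2 for the strongest upstream candidate in replicate 1 and 31.9 against 26.1 in replicate 2.

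Desat1 (FBgn0086687), the acyl-CoA desaturase that puts a double bond into fatty acids, lies at 12439600 to 12447616 on 3R and has 5 annotated starts. Its peak at 12443779 to 12444138 had its summit 82 bp from one of the internal starts, with a signal of 75.4, rank 2139. Replicate 1 had 44.4 (IDR 0.106) and replicate 2 had 36.7 (IDR 0.0332). Neither passed its own threshold, and the peak passed in both series-level lists.

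The gene mdy (FBgn0004797, midway) encodes diacylglycerol acyltransferase, the enzyme of the last step to triacylglycerol, and lies at 16816660 to 16826964 on 2L. Both of its peaks lay in introns, in sequence that is also inside CG13280. The stronger, at 16819813 to 16820172, had a signal of 101, rank 1257, with 41.6 in replicate 1 (IDR 0.00400) and 52.9 in replicate 2 (IDR 0.00111). The nearest protein-coding TSS was that of CG13280, 1100 bp away, and the nearest of mdy was 2885 bp away. The weaker, at 16817501 to 16817860, had a signal of 81.8, rank 1895, and lay 573 bp from a TSS of mdy. It passed in replicate 2, with 48.8 (IDR 0.00324), and just missed in replicate 1, with 30.4 (IDR 0.0112). It was the 1 summit of the 10 past the threshold in replicate 2 alone.

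The perilipin genes differed in that Lsd-2 had a main-list summit and Lsd-1 had none. Lsd-2 (FBgn0030608), whose protein shields stored lipid from lipases, lies at 15069127 to 15076220 on X, minus strand. Its main-list peak at 15074894 to 15075253, in the intron 1146 bp downstream of the TSS, had a signal of 89.7, rank 1600. It passed in replicate 1, with 53.4 (IDR 0.000565), and just missed in replicate 2, with 40.7 (IDR 0.0127). Replicate 2's own thresholded list instead had a summit at 15071406, in an exon 4814 bp downstream of the TSS, with a signal of 51.3 (IDR 0.000680). Replicate 1 had an overlapping ranked peak with its summit at 15071237, a signal of 25.5 and an IDR of 0.0652. The paired ranked list had one with its summit at 15071357, a signal of 70.3 and an IDR of 0.0104, just outside the main list. This paired summit had 1 WGATAR within 50 bp, centred 4.5 bp away. The replicate 1 summit at 15071237 had 1, centred 2.5 bp away, and the replicate 2 summit at 15071406 had none. The replicates thus each had 1 thresholded summit at Lsd-2, at different places.

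Lsd-1 (FBgn0039114), whose protein helps lipases reach the droplet, is the shortest of the 10 genes, at 23763857 to 23766662 on 3R, with a window of 4.81 kb. Of protein-coding genes with windows under 5 kb, 12.4% had a main-list summit. The ranked lists, which keep peaks of any IDR, had a candidate at 23763930 to 23764289, with its summit 128 bp from a TSS and 2 WGATAR within 50 bp. Its signal was 45.5 in the paired ranked list (IDR 0.125), and the strongest candidate was 22.7 in replicate 1 (IDR 0.673) and 18.9 in replicate 2 (IDR 0.692). These values lie far from the threshold of 0.01 in both replicates.

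The lipase gene bmm (brummer, FBgn0036449), which encodes the main triacylglycerol lipase of the fat body, lies at 14776496 to 14786412 on 3L, minus strand. Its peak at 14784994 to 14785353, in an intron 1238 bp downstream of the TSS, had a signal of 91.5, rank 1545. Replicate 1 had a signal of 64.3 (IDR 0.000134) and replicate 2 one of 27.8 (IDR 0.185), and their summits lay 107 bp apart. Replicate 1, the only replicate past its threshold there, had its summit at 14785067 with the 2 words given above, and replicate 2 had its summit at 14785174 with none within 50 bp. The lowest IDR of any replicate 2 candidate in the bmm window was 0.185.

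Of the transport genes, Apoltp had a summit and apolpp had no peak in any list. Apoltp (FBgn0032136) encodes a subunit of the particle that loads lipid onto lipophorin, and lies at 9634179 to 9656026 on 2L. Its peak at 9633069 to 9633428 was the only intergenic one of the 10, 930 bp upstream of the TSS, with a signal of 77.6, rank 2055. It passed in replicate 1, with 44.0 (IDR 0.00224), and did not in replicate 2, with 31.6 (IDR 0.301). Closer to the start, 154 bp upstream, the paired ranked list had a candidate with a signal of 50.8 and an IDR of 0.0739.

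The gene apolpp (FBgn0087002), which encodes the scaffold protein of lipophorin, lies at 1060969 to 1077273 on chromosome 4. Its window of 18305 bp held none of the 62335 ranked peaks that pair the replicates, none of the 31315 of replicate 1 and none of the 62059 of replicate 2. The other 9 lipid genes each had ranked summits in all 3 lists, as did 81.1%, 74.9% and 81.5% of protein-coding genes in turn. The nearest paired ranked summit lay 13321 bp outside the window. Chromosome 4 had few ranked peaks as a whole, 53.4 per Mb in the paired list against 453 per Mb over all arms, and 16 of its 80 protein-coding genes had a paired ranked summit. The read depth over apolpp is unknown, so the lack of a peak there does not measure binding.

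**Figure D3:**
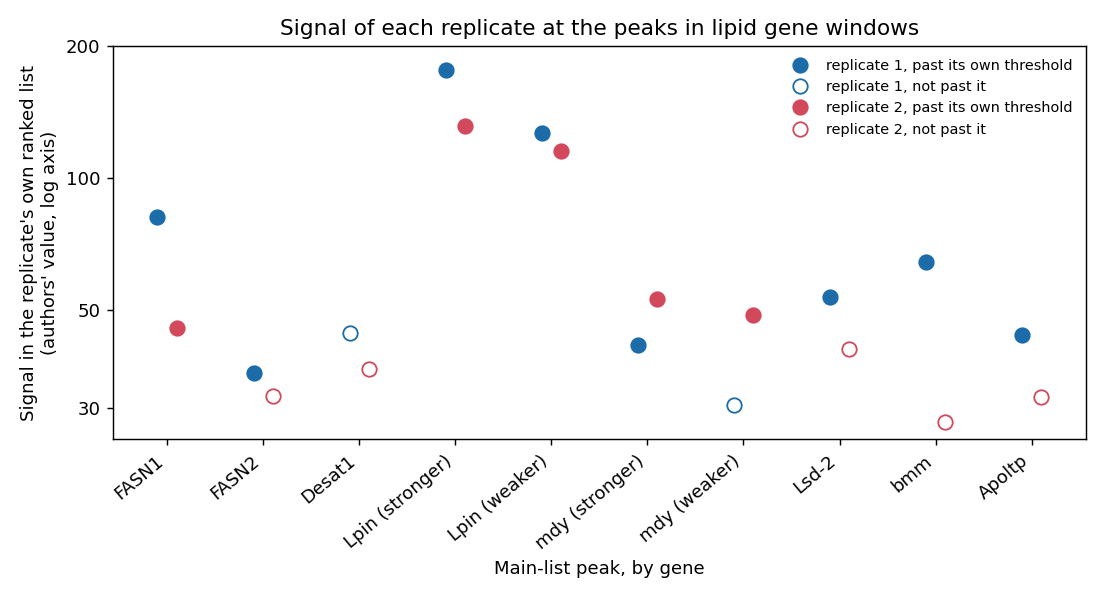
Signal in each replicate's own ranked list (y axis, authors' value, log axis) at the 10 main-list peaks (x axis, by gene), with filled points past that replicate's own threshold. Both points are filled at FASN1, both Lpin peaks and the stronger mdy peak, and neither at Desat1. The replicates' signals are not on a common scale, so their order within a pair carries no meaning.

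Agreement between the replicates' own thresholded lists was uneven across the 10 peaks. In the paired ranked list the IDR of these peaks ran from 1e-05 at both Lpin peaks to 0.00507 at FASN2. At 4 of them (FASN1, both Lpin peaks and the stronger mdy peak) each replicate had a thresholded summit inside the main-list peak. At 4 (FASN2, Lsd-2, bmm and Apoltp) replicate 1 alone had one, at 1 (the weaker mdy peak) replicate 2 alone, and at Desat1 neither. Of the whole 3032, each replicate had one at 1304 (43.0%), replicate 1 alone at 758, replicate 2 alone at 273 and neither at 697 (23.0%). The ranked summits of the 2 replicates lay 6 to 116 bp apart at the 10 peaks, with a median of 37.5 bp. A window of 50 bp to either side of the main-list summit can thus miss a word near 1 replicate's summit. It can also hold a word that is not near a replicate's summit, as at Apoltp in replicate 1.

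Gene by gene, 7 of the 10 had a summit in replicate 1's thresholded list (17.5% of protein-coding genes) and 4 in replicate 2's (12.4%). The 4 were FASN1, Lpin, mdy and Lsd-2, and all 4 were among the 7 of replicate 1. FASN2, bmm and Apoltp had one in replicate 1 only. In the other thresholded list of the series 7 genes had a summit (17.7%), the 8 of the main list without FASN2. By position, 3 of the 10 main-list summits lay within 500 bp of an annotated TSS, 6 in introns and 1 in intergenic sequence, and over the main list 49.2%, 38.1% and 9.23% did.

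Other genes of lipid metabolism had summits in about the same share in each of 5 lists. The lists were chosen from known roles, with earlier results of these data known. Of 70 genes matched, 30 (42.9%) had a main-list summit, against 19.0% of protein-coding genes. The median windows of the 5 lists ran from 4.34 to 7.90 kb, and 23.6% of protein-coding genes with windows of 5 to 10 kb had a summit. The droplet list and the lipolysis and beta-oxidation list had median windows under 5 kb. Of protein-coding genes with windows that short, 12.4% had one.

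**Figure D4:**
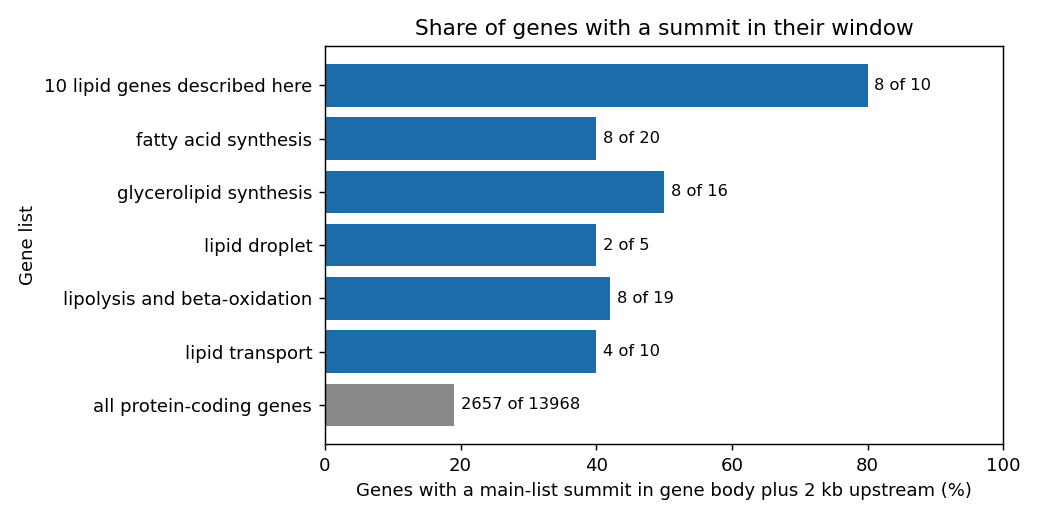
Share of genes with a main-list summit in their window (x axis, %) for the 10 lipid genes, 5 lists of other lipid genes and all protein-coding genes (y axis), with the counts beside the bars. The lists stand between 40% and 50%, above the 19.0% of all protein-coding genes, and window lengths are not allowed for.

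In fatty acid synthesis and its control 8 of 20 had a summit. The signal was 226 at sug, a zinc-finger gene of the sugar response, 162 at Cyt-b5, whose protein passes electrons to desaturases, and 159 at Baldspot, a fatty acid elongase gene. It was 136 at bigmax and 78.2 at Mondo, which encode the 2 partners of a sugar-sensing factor, and 120 at ACC, whose enzyme makes malonyl-CoA, the building block for fatty acid synthase. The ACC summit lay 507 bp from a TSS of Nup44A and 718 bp from one of ACC, and replicate 1 had no ranked summit inside that peak. The gene Men had 84.5, with no thresholded summit of either replicate inside its peak. Inside the Mondo peak replicate 2 alone had a thresholded summit. SREBP and SCAP, which control lipid synthesis genes, and ATPCL, the ATP citrate lyase gene, had none.

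In glycerolipid synthesis 8 of 16 had a summit. Agpat4, an acyltransferase gene of the step before Lpin, had the highest signal of all 5 lists, 322, rank 69, just above that of Lpin, 105 bp from its TSS and with 2 WGATAR within 50 bp. Replicate 1 had 149 there and replicate 2 had 173. Cds, which draws on the same phosphatidate for phospholipids, had 188, bbc 133, Agpat2 103 and Gpat4, which starts the pathway, 83.8. Replicate 2 had no ranked summit inside the Cds peak. Pcyt1 had 80.4, with no thresholded summit of either replicate inside its peak. Inside the Gpat4 peak replicate 1 alone had a thresholded summit. Dgat2, like mdy a diacylglycerol acyltransferase gene, had a signal of 73.0 at its strongest peak, 60 bp from its TSS. Replicate 2 alone had a thresholded summit inside that peak. CG1941 and CG1946, in the same list, had no summit.

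Of 5 further droplet genes, Seipin, which acts where droplets form at the endoplasmic reticulum, had a signal of 145, and klar, which acts in moving droplets in the embryo, had 116. In lipolysis and beta-oxidation 8 of 19 had one. They included bgm, a very-long-chain acyl-CoA synthetase gene, with 268, puml, a lipid hydrolase gene, with 225, and whd, a carnitine palmitoyltransferase gene, with 184. PAPLA1, a phospholipase gene, had 128, Etf-QO, of the electron transfer from beta-oxidation, 120, and Mcad 103, the last 302 bp from a TSS of Ank2 and 653 bp from its own. The hormone gene Akh, its receptor gene AkhR, the lipase gene Hsl and CPT2, a further carnitine palmitoyltransferase gene, had none.

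In lipid transport 4 of 10 had a summit, namely fabp (116), Npc1b (101), LpR1 (76.1) and LpR2 (67.0). Neither replicate had a thresholded summit inside the LpR1 peak, and replicate 2 alone had one inside the LpR2 peak. LpR1 and LpR2 encode receptors of lipophorin, and Npc1b is needed for sterol uptake in the midgut. The fabp summit lay 345 bp from a TSS of sea and 4413 bp from one of fabp. Mtp, whose protein loads lipid onto the apolpp product, had none.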

How the data were processed

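GATAe-eGFP was immunoprecipitated from whole embryos in 1 group of 2 biological replicates. The authors deposited 8 peak lists on dm6, per the labels and the deposited record: a ranked and a thresholded list per replicate, and 2 of each for the series. The signal of each peak is the authors' deposited value. The authors also deposited −log10 of the IDR for each ranked peak. Each thresholded list stopped at an IDR of 0.01 when matched to its ranked list, and leaves out some peaks under it. The aligner is not given in the sources used here, nor is the caller. Read depth is unknown, so values carry no depth, SD or interval, and signals only rank peaks within a list.

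Genes were those of Ensembl release 115, and bases were read from RefSeq's copy of dm6, where 99.8% of 30618 annotated start codons read ATG. The 15 main-list peaks off the arms, transposable elements and pseudogenes were left out. A replicate's signal at a main-list peak is that of its highest ranked peak with a summit inside it. Coordinates are 1-based. Python 3.11.15, numpy 2.4.6 and matplotlib 3.10.9 were used, and the counting steps were tested on simulated data. The members, the 5 lists and the alternatives were chosen with earlier results of these data known. Genes named are the 10, up to the 6 strongest of each list, and the genes nearest to or holding their summits. Dgat2, Mondo and the listed genes without a summit were named after their values were seen. Of 71 listed symbols, 70 matched, 2 by an older name. The bins of window length were chosen after seeing the data.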

Additional observations from a re-analysis of the deposited data

How the results depend on the processing

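Counts were repeated with each replicate's own list, the second series-level list, an IDR of 0.05, merged peaks and other windows. In replicate 2's list alone the lipid genes with a summit fell from 8 to 4, their summits from 10 to 6, those with WGATAR from 5 to 3 and protein-coding genes from 2657 to 1736. Leaving out each replicate in turn gave 4 to 7 lipid genes, 6 to 8 summits, 3 to 4 with WGATAR, 1736 to 2448 protein-coding genes and 2 to 3 lipid transport genes. Restricting summits to 1 kb around a TSS of the gene, 4 lipid genes (Desat1, Lpin, mdy and Apoltp) with 4 summits were left, and 1 of the 4 lipid transport genes, while protein-coding genes fell from 2657 to 1928 of 13968. WGATAR within 25 bp was at 2 of 10 summits and in 4 of 20 of their flanks, against 27.6% of all main-list summits and 10.9% of all flanks. The cause of these shifts was not tested beyond the narrower rules themselves. All other alternatives stayed within 1.5 times of the reported count. At an IDR of 0.05 the same 8 genes had 13 summits, 7 of them with WGATAR, and protein-coding genes with a summit rose from 2657 to 3622. With each summit given only to the gene with the nearest TSS, chosen after seeing the data, the same 8 genes had 8 summits. No paired analysis was possible because there is 1 group. Read depth is unknown, so a missing peak is not a measure of no binding.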

Other observations

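In 5 of the 8 lipid genes with a summit, namely FASN1, FASN2, mdy, Lsd-2 and bmm, a main-list summit lay 1 to 1.6 kb downstream of the first annotated start, in an intron. They act in synthesis, storage and breakdown, and 3 of the 5 summits had WGATAR within 50 bp. Of the 2147 protein-coding genes with a main-list summit and a body longer than 1.6 kb, 146 (6.80%) had a summit in that stretch. The stretch was chosen after the positions were seen and fits them by construction, and no test was made.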
